A study of Mus musculus with 58 samples.

Results

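Fatty acid synthesis, elongation and desaturation in the mouse retina was followed through 10 genes picked by symbol: Srebf1, Fasn, Acaca, Scd1, Scd2, Elovl2, Elovl4, Elovl5, Fads1 and Fads2. They were 10 of the 52459 symbols in the count table, and all 10 were among the 19120 genes counted as expressed, with a median above 4 normalized counts over all libraries. A normalized count is a read count divided by the DESeq2 size factor of its library.

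RNA of single retinas was sequenced from 4-month-old male C57BL/6 mice, either heterozygous for the Ins2Akita allele (diabetic) or wild-type littermates (control), kept under equal hours of light and dark and perfused with saline before dissection. The Ins2Akita allele encodes an insulin that misfolds in pancreatic beta cells, so the mice become hyperglycemic without any drug, and the retina itself carries the same allele. Retinas were taken at ZT1, ZT5, ZT9, ZT13, ZT17 and ZT21, zeitgeber times counted in hours from lights on, with lights off at ZT12. Control groups had 5, 6, 5, 5, 5 and 4 libraries at these times and diabetic groups 5, 5, 5, 4, 4 and 5, 58 libraries in all. The methods call the replicates biological, but the labels do not tie a library to a mouse, so the p-values measure the spread between libraries.

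Cells build palmitate from acetyl-CoA and malonyl-CoA in the cytosol, then lengthen it and insert double bonds in the endoplasmic reticulum. Dietary polyunsaturated fatty acids enter the same elongases and desaturases and come out as long-chain products such as docosahexaenoic acid, which is abundant in photoreceptor outer segments. Srebf1 encodes SREBP1, the transcription factor that switches on many of these enzymes, and in liver its 1c form is induced by insulin and feeding.

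Promoter stretches were read from RefSeq windows on GRCm38.p6 that run from 250 bases before to 50 bases after a transcription start. The windows covered 7 of the 10 genes in 10 windows of 300 bases. Scd1, Scd2 and Fads1 had no window. The stretches below belong to Srebf1, to the elongases Elovl5 and Elovl2, whose levels varied with time of day in diabetic retinas, and to Fasn, the best known SREBP1 target among the members. Capitals mark CCAAT boxes (CCAAT, or ATTGG where the motif lies on the other strand), GC boxes (GGGCGG) and E-boxes (CACGTG), the motifs that bind NF-Y, SP1-like factors and, among others, clock and SREBP factors. All stretches lie before the RefSeq start of their window and are written 5′ to 3′ on the strand of the gene. For Srebf1, which has 3 windows, the stretch belongs to the start farthest downstream, inside the gene as Gencode draws it. For Elovl2 and Elovl5 the RefSeq start lies slightly inside the Gencode gene, so the last bases of the stretch overlap it.
Srebf1, minus strand, chr11:60210472-60210571: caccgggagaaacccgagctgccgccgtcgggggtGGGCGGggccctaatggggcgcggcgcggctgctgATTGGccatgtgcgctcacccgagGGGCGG
Elovl5, plus strand, chr9:77917175-77917244: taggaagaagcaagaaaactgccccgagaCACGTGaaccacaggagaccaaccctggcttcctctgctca
Elovl5, plus strand, chr9:77917255-77917364: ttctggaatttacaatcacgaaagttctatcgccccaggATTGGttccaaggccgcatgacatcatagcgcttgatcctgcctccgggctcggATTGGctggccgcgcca
Elovl2, minus strand, chr13:41220404-41220533: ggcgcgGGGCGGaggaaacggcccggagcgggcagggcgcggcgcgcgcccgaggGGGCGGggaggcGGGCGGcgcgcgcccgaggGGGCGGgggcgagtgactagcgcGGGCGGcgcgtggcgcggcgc
Fasn, minus strand, chr11:120824578-120824677: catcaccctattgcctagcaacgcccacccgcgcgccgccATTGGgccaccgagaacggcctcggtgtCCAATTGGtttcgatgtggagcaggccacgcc

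Elovl5 held an E-box beginning 161 bases before its start, and Elovl4 was the other member with one. On both strands, the E-box letters were found in 2 of the 10 member windows and in 7.15% of the 32851 windows of all genes. The CCAAT box was in 5 of 10 windows against 37.4% of all, and the GC box in 5 of 10 against 35.7%. In Fasn the boxes at 62 and 59 bases before the start overlap and face opposite ways. The classical sterol regulatory element, searched as TCACNCCAC, was in none of the member windows and in 1.24% of all windows. These matches describe letters in short windows and say nothing of what binds there in the retina.

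Per length of exon, the level of Elovl4 was the highest of the 10. Elovl4, the elongase that makes very-long-chain polyunsaturated fatty acids and is needed by photoreceptors, had a median RPKM of 180 (lowest 111, highest 213, 58 libraries), where RPKM is the read count per kb of exon, scaled to the counted reads of the library. Scd2, the stearoyl-CoA desaturase that is most abundant in neural tissue, followed at 82.9 (59.8 to 96.6). Fasn, the fatty acid synthase, had 25.4, Srebf1 22.0 and Elovl2 21.4 on the same scale, and the ranges of these neighbours overlapped. Fads2 and Fads1, the delta-6 and delta-5 desaturases of polyunsaturated fatty acid synthesis, had 14.0 and 13.4. Elovl5, Acaca (acetyl-CoA carboxylase 1, which makes malonyl-CoA) and Scd1 were lowest, with 8.52, 8.51 and 3.33. Scd1, the desaturase of liver and fat, was thus read 98 to 416 times in a library, which leaves it the largest counting error of the members.

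**Figure D1:**
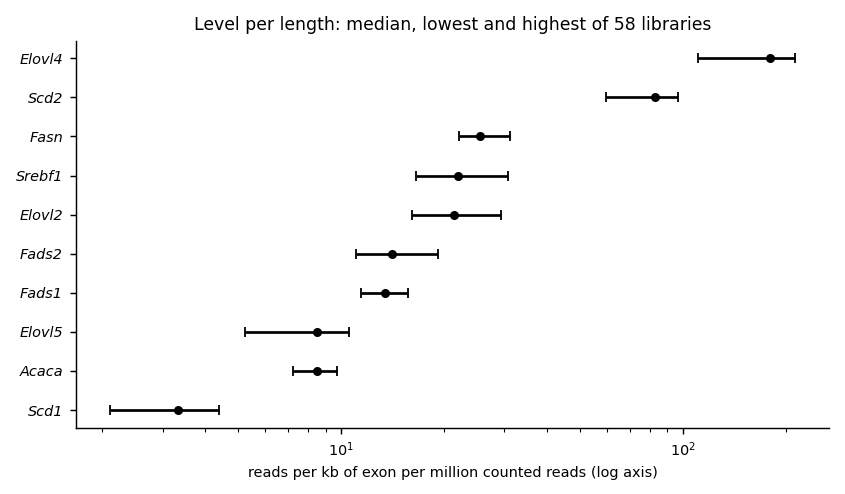
Level of each gene per length, as RPKM on a log axis, as the median (point) and the lowest and highest (bars) of 58 libraries. Elovl4 and Scd2 lie above the range of every other member, and Scd1 lies below it.

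Depth ranged from 7773117 to 22147398 counted reads in a library, with a median of 15406440.5. Rod and Muller glia markers were high in every library, with lowest sums of 520728 and 43935 normalized counts. The adipocyte markers Adipoq, Cfd, Lep and Cidec were at 0 in at least 34 of the 58 libraries, and never above 2.32 normalized counts. Of that list, Plin1 was low but present in every library (1.16 to 10.8), and Fabp4, which endothelial cells also express, ranged from 64.9 to 356. Of 4 lipid gland markers, Elovl3 was at 0 in 55 libraries and never above 2.66, while Scd3, Awat2 and Far2 were present in all 58, with medians of 42.6, 20.4 and 57.4. In 3 control libraries, at ZT1, ZT17 and ZT21, lens markers summed to more than 10000 normalized counts, and the results that they touch are given without them. Retinas are mixtures, so fewer cells of a type and less RNA per cell cannot be told apart in any value below.

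Daily variation of the 10 genes was tested with a 24 h cosine for each genotype, which asks whether a transcript cycles. None of the 10 passed in control retinas, while 4 of 10 passed in diabetic retinas: Srebf1, Scd1, Elovl2 and Elovl5. Of all 19120 genes, 12.2% passed in control and 14.3% in diabetic retinas (edgeR quasi-likelihood test, adjusted p under 0.05). The difference between the cosines of both genotypes passed for no member and for 0.0% of all genes. At an unadjusted p under 0.05, 2 members passed in control against 26.4% of all genes, 5 in diabetic retinas against 26.9%, and 1 in the test of the difference against 3.44%. DESeq2 called 0, 4 and 0 members in these tests at an adjusted p under 0.05. The shares of all genes above are those of edgeR, and those of DESeq2 are not given here. A pass in 1 genotype alone does not show that the genotypes differ. Cell type markers passed the same cosine test in diabetic retinas: 4 of 7 of pigment epithelium, 3 of 7 of rods, 2 of 6 of Muller glia and 1 of 2 of oligodendrocytes (in control 3, 3, 2 and 0). Of the 2 expressed lens markers, 2 passed in control and 0 in diabetic retinas. Their part in the rhythms of the 4 members was not tested.

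Srebf1 had the largest relative amplitude of the members in both genotypes. The amplitude of its cosine was 9.14% ± 2.73 of the mean level in control (SE, n = 30) and 13.3% ± 3.49 in diabetic retinas (SE, n = 28), with peaks at ZT20.0 ± 1.11 h and ZT18.0 ± 1.01 h (SE). The adjusted p of the rhythm was 0.00467 in diabetic and 0.0829 in control retinas, and that of the difference was 1 (unadjusted 0.237) in edgeR. Without the libraries of ZT21 the diabetic rhythm of Srebf1 had an adjusted p of 0.0578, past the threshold no longer. In control retinas the normalized counts of Srebf1 were 1778, 1671, 1277, 1675 and 1375 at ZT9 and 2000.1, 1911, 1791 and 2219 at ZT21. Each control library at ZT21 was above each at ZT9. In diabetic retinas they were 1949, 1567, 1651, 1846 and 1504 at ZT9 and 2387, 1766, 2409, 2372 and 1933 at ZT21. Here 3 of 5 libraries at ZT21 lay above every library of ZT9 and the other 2 lay within the range of ZT9.

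Averaged over ZT13, ZT17 and ZT21 and set against ZT1, ZT5 and ZT9, Srebf1 was 0.27 ± 0.061 higher at night on the log2 scale in diabetic retinas (SE, edgeR, adjusted p = 0.00148). In control retinas the night minus day difference was 0.16 ± 0.059 (adjusted p = 0.0977). The difference between these differences was 0.11 ± 0.085 on the log2 scale (unadjusted p = 0.194). Srebf1 was the 1 member of 10 that rose at night in diabetic retinas, against 6.54% of all genes that rose and 14.3% in either direction. No member of 10 passed in control, in edgeR or DESeq2, against 8.0% of all genes in either direction, and 3 did at an unadjusted p under 0.05, against 22.1%. Pigment epithelium markers also rose at night, 5 of 7 in diabetic and 3 of 7 in control retinas, with sums from 258 to 3489.5 normalized counts over libraries, and Muller glia markers did so in 1 of 6. The oligodendrocyte marker Mbp rose at night in diabetic retinas (log2 0.23, adjusted p = 0.000570), and 2 of 7 rod markers, Nr2e3 and Sag, fell at night in both genotypes (diabetic log2 -0.36 and -0.27, edgeR). Their part in the result of Srebf1 was not tested. The 3′ end of Srebf1 (GRCm38, chromosome 11, 60199089 to 60222581, minus strand) overlaps Rai1 on the other strand up to 60199197. Rai1 had a mean of 1884 normalized counts, and whether the counting used strand is not given in the sources used here.

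**Figure D2:**
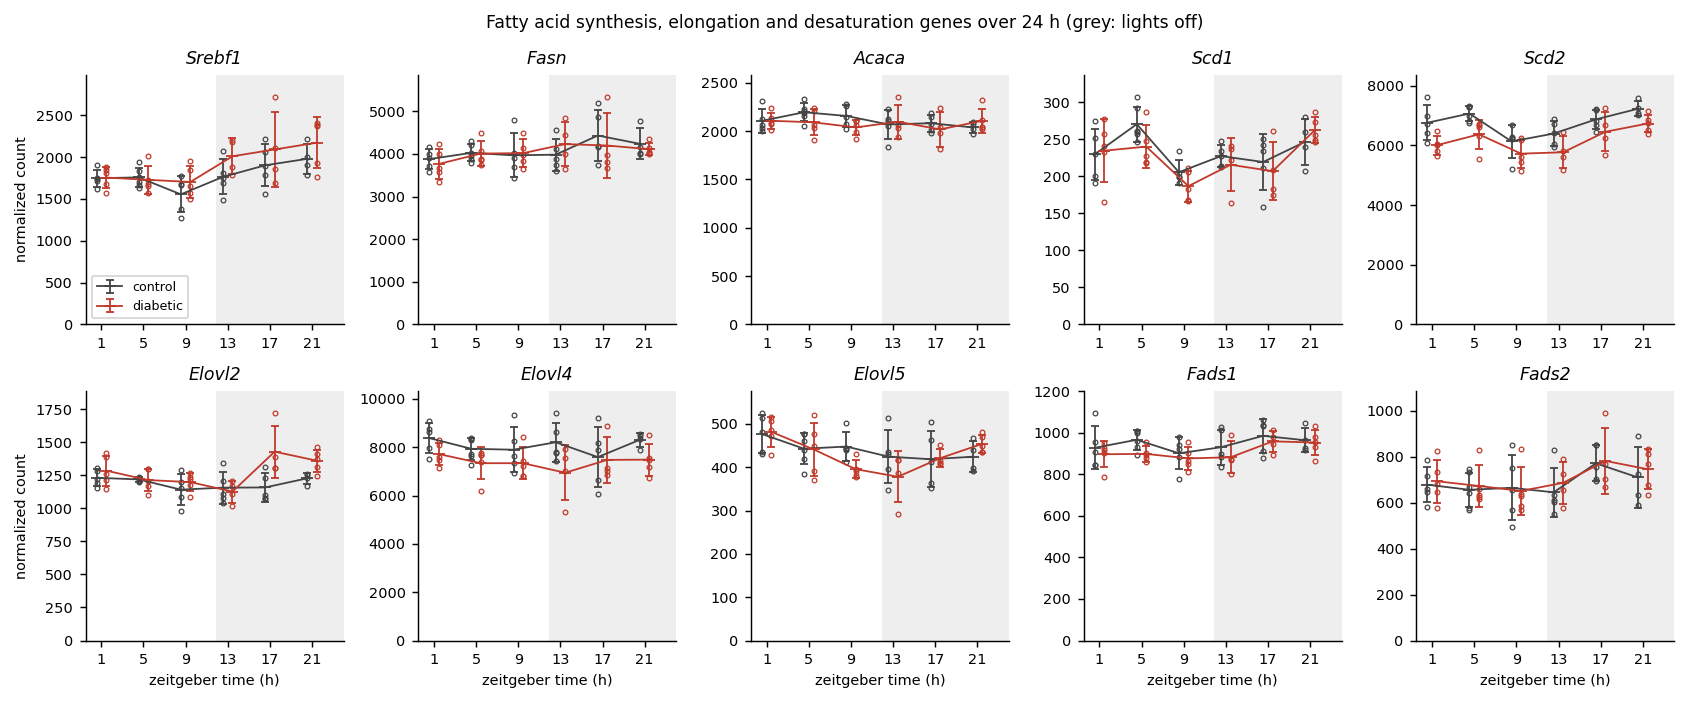
Normalized counts of the 10 genes in every library (circles) against zeitgeber time, with the mean and SD of each group of 4 to 6 libraries (bars), control in grey and diabetic in red, and lights off shaded. Srebf1 is higher at ZT21 than at ZT9 in both genotypes, and Scd1 and Scd2 are lowest at ZT9. The means of Scd2 and Elovl4 are lower in diabetic than in control retinas at each time. In the edgeR fit of genotype alone over all libraries Scd2 passed and Elovl4 did not.

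The enzymes that make palmitate showed no call for time of day. Fasn had amplitudes of 4.77% ± 2.48 in control and 4.69% ± 2.73 in diabetic retinas (SE) and group means from 3879 to 4433 and from 3765 to 4231 normalized counts. Acaca had 3.25% ± 1.28 and 1.38% ± 1.65, and its group means stayed within 2038 to 2194 (control) and 2017 to 2106 (diabetic). The adjusted p of the rhythm was 0.403 and 0.456 for Fasn and 0.244 and 0.808 for Acaca (control, diabetic; edgeR). Within a genotype, the widest ratio between 2 group means was 1.14 for Fasn and 1.08 for Acaca, both in control retinas, and in each case the ranges of both groups overlapped.

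The delta-9 desaturases Scd1 and Scd2, which turn saturated into monounsaturated fatty acids, were lowest at ZT9 in both genotypes. Scd1 (GRCm38, chromosome 19, 44394455 to 44407879, minus strand) had normalized counts of 205, 182, 211, 166 and 168 at ZT9 and of 249, 256, 286, 273 and 246 at ZT21 in diabetic retinas, with no overlap and a ratio of means of 1.41. In control retinas the counts at ZT9 were 234, 205, 199, 190.4 and 199, and the 6 libraries at ZT5 ranged from 246 over a median of 260.3 to 306, again with no overlap. The cosine of Scd1 had an amplitude of 12.6% ± 4.00 with a peak at ZT23.1 ± 1.22 h in diabetic retinas (SE, adjusted p = 0.0425) and of 7.41% ± 3.49 in control retinas (SE, adjusted p = 0.323; edgeR). With no filter on low counts the adjusted p in diabetic retinas was 0.0641, and without the libraries of ZT9, ZT17 or ZT21 it was 0.366, 0.0513 or 0.319, so the call of Scd1 rests on a narrow margin.

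Scd2 (chromosome 19, 44293674 to 44306864, plus strand) reached 7011, 7079, 7262 and 7576 normalized counts at ZT21 in control retinas, all above the 6695, 6294, 5200.3, 6224 and 6260 of ZT9. In diabetic retinas Scd2 had 5605, 5452, 6250.0, 6174 and 5148 at ZT9 and 6867, 6511, 7140.2, 6769 and 6387 at ZT21, again without overlap. Its relative amplitude was 6.17% ± 1.84 and 6.18% ± 2.18 (control, diabetic; SE), and its peaks fell at ZT22.7 ± 1.08 h and ZT21.4 ± 1.40 h (SE). The cosine test gave adjusted p-values of 0.0915 and 0.0857 (edgeR), neither past the threshold.

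A test of any difference among the 6 times, with no assumed waveform, passed for Elovl2, Srebf1, Scd1 and Scd2 in diabetic retinas, with adjusted p-values of 0.0115, 0.0311, 0.0346 and 0.0493 (edgeR). That was 4 of 10 members, against 10.2% of all genes. In control retinas it passed for none of 10, against 9.06% of all genes, with Scd2 closest at an adjusted p of 0.0629 and 3 members past an unadjusted 0.05, against 21.8% of all genes. With DESeq2 in place of edgeR, Scd2 passed in control retinas too (adjusted p = 0.0347). The call of Scd2 in diabetic retinas was lost in 43 of 58 fits without a single library, with adjusted p-values from 0.0183 to 0.112. This test and the cosine test used the same libraries.

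Among the elongases, Elovl2 and Elovl5 passed the cosine test in diabetic retinas. Elovl2 lies on chromosome 13 from 41182381 to 41220405 (minus strand) and lengthens polyunsaturated fatty acids on the way to docosahexaenoic acid. It had 1388, 1302, 1305 and 1717 normalized counts at ZT17 in diabetic retinas. At ZT13, 4 h earlier, it had 1207, 1171, 1109 and 1017, so the groups did not overlap and the ratio of their means was 1.27. In control retinas the means of Elovl2 lay between 1141 and 1230.3 at the 6 times. Its amplitude was 8.76% ± 2.47 in diabetic (SE, peak at ZT20.4 ± 1.12 h, adjusted p = 0.0105) and 4.19% ± 1.82 in control retinas (SE, adjusted p = 0.358; edgeR). The difference between both cosines had an unadjusted p of 0.0460 and an adjusted p of 1. Without the libraries of ZT21 the diabetic rhythm of Elovl2 had an adjusted p of 0.0626, not past the threshold.

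Elovl5, the elongase that takes fatty acids of intermediate length, lies on chromosome 9 from 77917364 to 77984519 (plus strand). It had 471, 517, 486, 427 and 506 normalized counts at ZT1 in diabetic retinas. All of these were above the 416, 416, 388 and 292 at ZT13, with a ratio of means of 1.27. The cosine had an amplitude of 11.4% ± 2.40 with a peak at ZT0.17 ± 0.79 h in diabetic retinas (SE, adjusted p = 0.00645) and of 4.84% ± 2.68 in control retinas (SE, adjusted p = 0.352; edgeR). Control retinas had 476.6 ± 43.3 at ZT1 and 424 ± 61.2 at ZT13 (SD, n = 5 each), and the libraries overlapped. The test of the difference gave an unadjusted p of 0.0648 for Elovl5. Without the libraries of ZT1 the adjusted p of its diabetic rhythm was 0.0813, past the threshold no longer. Elovl4 had amplitudes of 2.16% ± 2.56 and 3.55% ± 2.64 (control, diabetic; SE) and adjusted p-values of 0.842 and 0.631.

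The delta-5 and delta-6 desaturases Fads1 and Fads2, neighbours on chromosome 19, were not called for time of day in either genotype. Fads2 passed the diabetic cosine test in a single alternative, with the GC slope described below and the replicate number both in the fit (adjusted p = 0.0338, edgeR). Their highest means were at ZT17, which for Fads1 were 986 ± 83.1 in 5 control libraries and 959 ± 51.7 in 4 diabetic libraries (SD). Fads2 had 771 ± 77.9 and 781 ± 144 in the same groups. Their amplitudes were 2.46% and 4.29% for Fads1 and 6.82% and 8.12% for Fads2, with errors of 1.65 to 3.81 percentage points (SE), and peaks between ZT19.0 and ZT20.3.

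**Figure D3:**
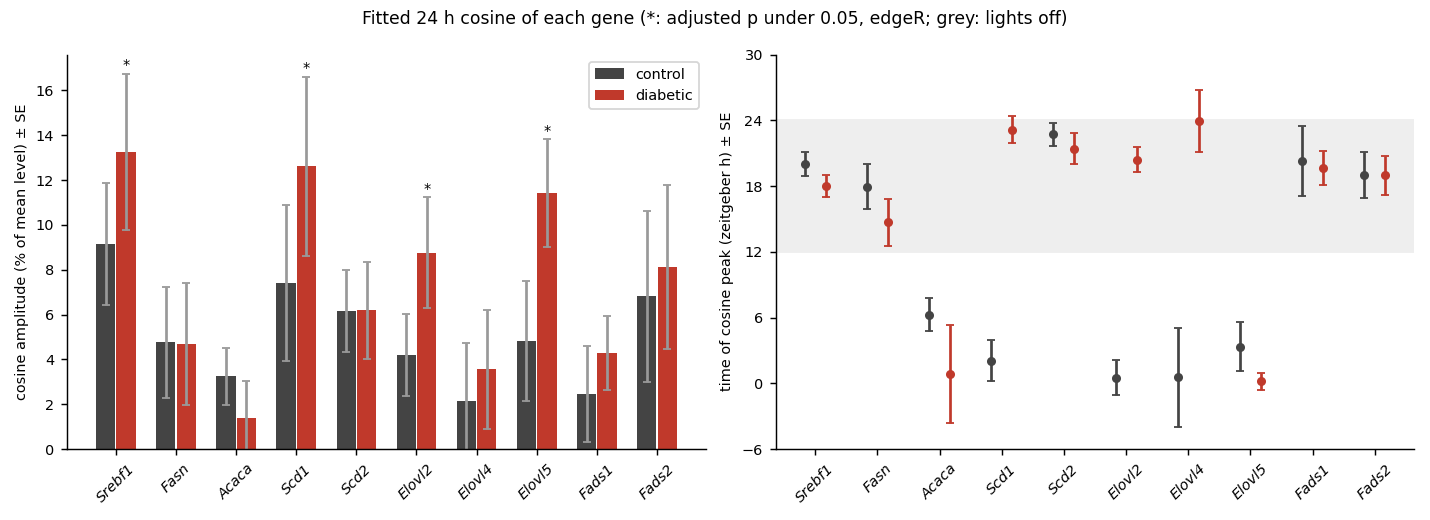
Left, amplitude of the fitted 24 h cosine in percent of the mean level with its SE for each gene, control in grey and diabetic in red, with a star where the edgeR test gave an adjusted p under 0.05. Right, the time of the peak in zeitgeber hours with its SE, lights off shaded. The 4 starred bars are Srebf1, Scd1, Elovl2 and Elovl5 in diabetic retinas, and for 4 of the 10 genes the control peak falls within 4 h after lights on.

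In a rank test written after the empirical JTK_CYCLE method that the study used, with an unadjusted p under 0.05 and the fold limit of the study applied to the highest over the lowest library, 3 members passed in control retinas and 5 in diabetic ones. The shares of all genes were 21.8% and 23.9%. Srebf1 (permutation p = 0.0213), Scd2 (0.0329) and Scd1 (0.0449) passed in control retinas. Elovl5 (0.00131), Elovl2 (0.00261), Srebf1 (0.00825), Scd2 (0.0243) and Scd1 (0.0396) passed in diabetic retinas. These p-values came from 200000 shuffled series (permutation), and the call is looser than the adjusted one above. The study took its fold from the empJTK output, which was not used here. With the same limit on the highest over the lowest group mean, a criterion added after the data were seen, Scd2 dropped out, which left 2 members in control and 4 in diabetic retinas, against 13.2% and 14.2% of all genes.

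Diabetic retinas were then compared with control retinas over all time points. Scd2 was lower in diabetic retinas, and it was the 1 member of 10 that passed, against 2.99% of all genes in either direction and 1.41% that were lower. Scd2 ranged from 5200.3 over a median of 6776 to 7617 normalized counts in the 30 control libraries and from 5148 over 6249 to 7241 in the 28 diabetic libraries. The ranges overlapped widely. Its mean was 6740.2 ± 537 in control and 6183 ± 567 in diabetic retinas (SD), a log2 change of -0.12 ± 0.033 (SE, adjusted p = 0.0200, edgeR). At each of the 6 time points the log2 change of Scd2 was negative, between -0.16 and -0.09, but none of these passed by itself.

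Without the 3 lens-rich control libraries the log2 change of Scd2 was -0.11 and its adjusted p was 0.0592, past the threshold no longer. With time point as a factor in the fit the adjusted p was 0.00114. In the fits that each left out 1 library the change stayed between -0.14 and -0.12 with adjusted p-values of 0.00655 to 0.0341. Rod markers moved alongside: their sum had a median of 640072 normalized counts in control and 607296 in diabetic retinas (531308 to 788704 and 520728 to 723046), and 1 of 7, Pde6a, was lower (log2 change -0.09, adjusted p = 0.0369). None of the 6 Muller glia or 7 pigment epithelium markers passed. Of the 2 expressed lens markers, Cryaa was lower in diabetic retinas (log2 change -5.01, adjusted p = 0.000970, edgeR) and Bfsp1 did not pass. Of the oligodendrocyte markers 1 of 2, Mbp, was higher in diabetic retinas (log2 change 0.16, adjusted p = 0.0247, edgeR). The part of the cell types in the lower Scd2 was not tested.

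Elovl4 (chromosome 9, 83778692 to 83806277, minus strand) was the next member. It ranged from 6067 over a median of 8056 to 9397 normalized counts in control and from 5325 over 7451 to 8889 in diabetic libraries. The log2 change was -0.12 ± 0.037 (SE), negative at each of the 6 time points, with an adjusted p of 0.0580 (edgeR), not past the threshold. With time point as a factor Elovl4 passed (adjusted p = 0.0384), so that 2 of 10 members passed in that fit, against 4.81% of all genes. It passed in DESeq2 as well (adjusted p = 0.0445). The same rod marker values stand beside Elovl4, and their part was not tested.

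The other 8 members did not pass. Elovl2 had a log2 change of 0.09 ± 0.035 (unadjusted p = 0.00820, adjusted p = 0.136), Srebf1 0.10 ± 0.050 (adjusted p = 0.337) and Fads1 -0.06 ± 0.029 (adjusted p = 0.352; SE, edgeR). Fasn, Acaca, Scd1, Elovl5 and Fads2 had log2 changes between -0.05 and 0.04. The median over the 10 members was -0.03 and over all genes 0.00 on the log2 scale, with 7 members negative and 3 positive.

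At single time points, none of the 60 pairs of member and time passed, and few of all genes did: 0.167% at ZT17, 0.0209% at ZT5, 0.0105% at ZT1, 0.00523% at ZT9 and 0.0% at both ZT13 and ZT21. At an unadjusted p under 0.05, 5 of the 60 pairs passed, against 5.68% of all genes and times together: Scd2 at ZT1, ZT5 and ZT13, Elovl4 at ZT13 and Elovl2 at ZT17. Elovl2 at ZT17 came closest, at a log2 change of 0.30 ± 0.075 (SE, unadjusted p = 0.000199, adjusted p = 0.0687, edgeR). Its 5 control libraries at ZT17 had 1071, 1230.3, 1101, 1076 and 1308 normalized counts against 1388, 1302, 1305 and 1717 in the diabetic ones. Of the diabetic libraries 2 lay just under the highest control library and the other 2 above it. With DESeq2 the adjusted p was 0.0237, and without the 3 lens-rich libraries it was 0.0427. Without replicate 5 of the diabetic ZT17 group, the highest library, the log2 change was 0.20 and the adjusted p 0.594.

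**Figure D4:**
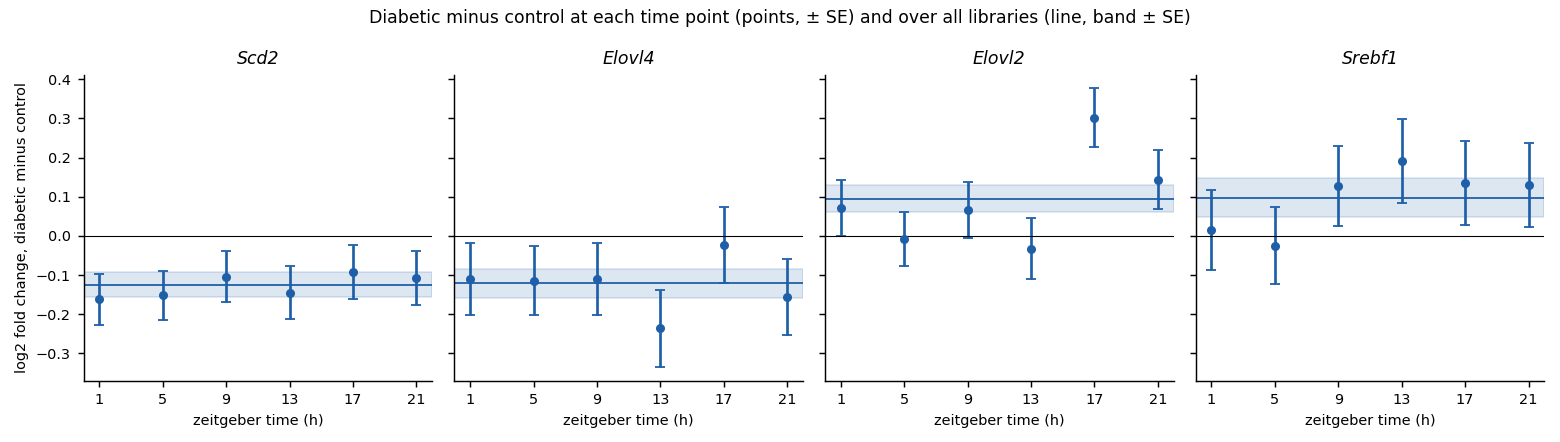
Log2 fold change of diabetic minus control for Scd2, Elovl4, Elovl2 and Srebf1 at each zeitgeber time (points with SE) and over all libraries (line with a band of the SE). Scd2 and Elovl4 lie below 0 at all 6 times, and Elovl2 stands out at ZT17 with 0.30.

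The levels of several members followed a property of the libraries. The slope of each library's log2 levels on the GC content of transcripts, over 18377 genes, ran from -0.24 to 0.46 log2 units per 10 percentage points of GC in control and from -0.21 to 0.41 in diabetic libraries. Its median was -0.058 in control and -0.00073 in diabetic libraries. Group medians ran from -0.089 (control ZT5) to 0.044 (diabetic ZT21). Whether the slope differs by genotype or time was not tested. Over the 58 libraries, Fads2 (r = 0.85, rho = 0.85), Fasn (0.78, 0.62), Srebf1 (0.59, 0.54) and Fads1 (0.57, 0.54) were higher where the slope was high (Pearson's r, Spearman's rho). Elovl4 (-0.48, -0.41), Elovl5 (-0.43, -0.39) and Acaca (-0.39, -0.46) were lower there. Permutation p-values of these 7, adjusted over the 10 members, were 0.00431 or less for both measures. The slope was computed from the levels of these same libraries, members included. These p-values therefore do not test a property measured apart from the levels. The share of all genes that go with the slope was not computed, so the 7 are not shown to differ from other genes. Without the 2 libraries farthest from the median slope, r stayed at 0.84 for Fads2, 0.70 for Fasn and -0.42 for Elovl4, and the relation kept its sign within each genotype (0.87 and 0.84 for Fads2, control and diabetic). The transcripts of Srebf1 and Fasn are 58.4% and 57.9% GC, those of Elovl4 and Elovl2 43.3% and 44.0%. For Scd2 (r = 0.22), Scd1 (0.08) and Elovl2 (0.02) the adjusted permutation p was 0.114 or more.

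With the slope as a covariate, a fit added after the data were seen, the calls in diabetic retinas were kept. The adjusted p of the rhythm was 0.00130 for Elovl5, 0.00335 for Srebf1, 0.00507 for Elovl2 and 0.0260 for Scd1 (edgeR). The genotype change was -0.13 for Scd2 (adjusted p = 0.00523) and -0.11 for Elovl4 (adjusted p = 0.0177), and Elovl2 at ZT17 passed with a log2 change of 0.30 (adjusted p = 0.0193). In that fit Scd2 and Scd1 also differed among times in control retinas (adjusted p = 0.0301 and 0.0458), 2 of 10 members against 10.6% of all genes in the same fit. This fit called more of all genes than the one without the slope: 20.9% in the diabetic cosine test, 7.23% for genotype over all time points and 1.43% for genotype at ZT17. Some estimates became smaller with the slope. The night minus day difference of Srebf1 was 0.22 on the log2 scale in diabetic retinas and still passed (adjusted p = 0.000257, edgeR). In control retinas it was 0.11 (adjusted p = 0.0970, edgeR). The adjusted p of the control rhythm of Srebf1 rose from 0.0829 to 0.202. In diabetic retinas the night minus day difference of Fads2 went from 0.13 to 0.06 and that of Fasn from 0.08 to 0.04. Neither Fads2 nor Fasn passed with or without the slope.

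**Figure D5:**
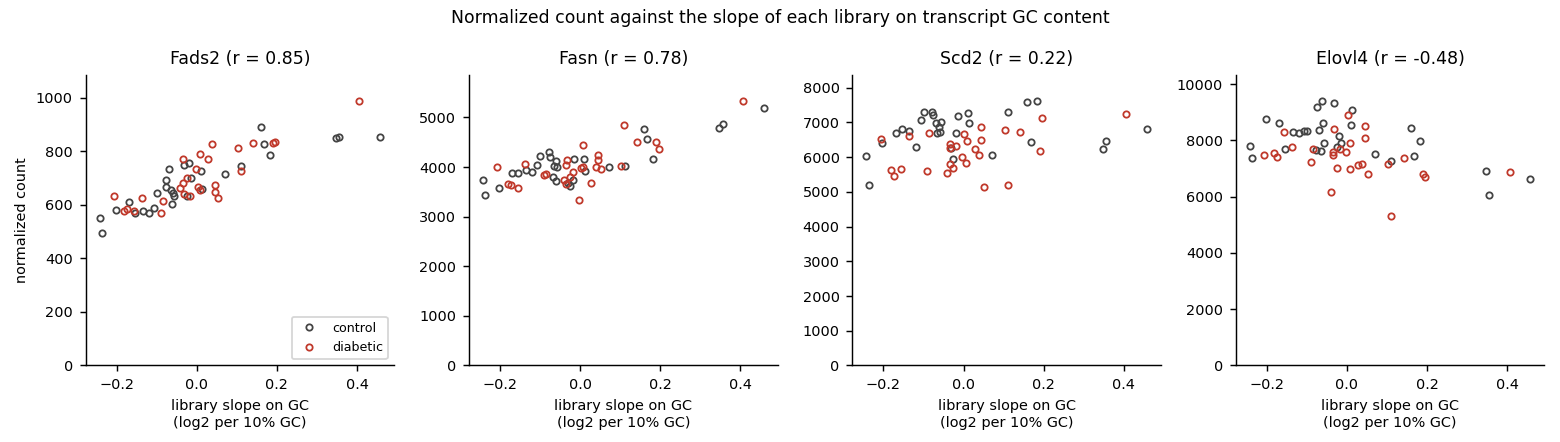
Normalized count of Fads2, Fasn, Scd2 and Elovl4 in each library against the library's slope on transcript GC content, in log2 units per 10% GC, control in grey and diabetic in red, with Pearson's r over 58 libraries. Fads2 and Fasn climb with the slope and Elovl4 declines, while the relation of Scd2 (r = 0.22) did not pass the permutation test.

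The wider pathway was read through a list of 56 other genes, of which 55 were in the table and 53 expressed. In the cosine test 7 of 53 passed in control and 6 of 53 in diabetic retinas, close to the shares of all genes given above. The smallest adjusted p in diabetic retinas was that of Fads3, a desaturase that acts on sphingoid bases, with an amplitude of 16.4% ± 2.39 and a peak at ZT17.7 in diabetic retinas (SE, adjusted p = 1.81e-05) and of 9.55% ± 2.35 at ZT16.7 in control retinas (SE, adjusted p = 0.0143; edgeR). Hsd17b12, the ketoreductase of the elongation cycle, peaked at ZT18.9 with 14.6% ± 2.07 in diabetic and at ZT20.5 with 11.2% ± 2.55 in control retinas (SE, adjusted p = 3.65e-05 and 0.00195).

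Acly, which makes cytosolic acetyl-CoA from citrate, had 7.12% ± 2.10 with a peak at ZT18.9 in diabetic and 8.22% ± 1.54 at ZT19.1 in control retinas (SE, adjusted p = 0.0196 and 0.00408). Mbtps1, the protease that makes the initial cut in SREBP processing, peaked by day, at ZT7.86 and ZT8.20 (diabetic, control; adjusted p = 5.39e-05 and 0.00419; edgeR). Fabp7, a fatty acid binding protein, passed in both genotypes at a level of only 4.14 to 25.8 normalized counts. Agpat3, which places docosahexaenoic acid in phospholipids, passed in control retinas (adjusted p = 0.000516, and 0.121 in diabetic; edgeR). In the test of any difference among times, 9 of 53 passed in control and 6 of 53 in diabetic retinas, against 9.06% and 10.2% of all genes. Lpcat1, which remodels phosphatidylcholine and is needed by photoreceptors, was among those in control (adjusted p = 0.00506; edgeR).

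At night, Fads3 was higher by 0.34 ± 0.049 in diabetic and 0.19 ± 0.048 in control retinas on the log2 scale (SE, adjusted p = 1.01e-06 and 0.00574), and Hsd17b12 by 0.25 ± 0.049 and 0.14 ± 0.047 (SE, adjusted p = 0.000209 and 0.0460; edgeR). Agpat3 was higher at night by 0.14 ± 0.040 in control retinas (SE, adjusted p = 0.0231), and its difference in diabetic retinas was 0.09 ± 0.042 (SE, adjusted p = 0.140; edgeR). Acsl6, which activates docosahexaenoic acid, was higher at night by 0.07 in both genotypes (adjusted p = 0.0371 in control and 0.0322 in diabetic; edgeR). In all, 5 of 53 rose at night in control retinas, against 3.91% of all genes. In diabetic retinas 4 rose, against 6.54% of all genes, and 1, Mbtps1, fell, against 7.72%. The test of the difference between genotypes passed for none of 53 and 0.0% of all genes, with 1 at an unadjusted p under 0.05, against 3.36%. Over all time points Elovl1, an elongase of saturated and monounsaturated chains, was the 1 of 53 that changed, against 2.99% of all genes. Its log2 change in diabetic retinas was -0.18 ± 0.050 (SE, adjusted p = 0.0253; edgeR). With time point as a factor 3 of 53 passed, 1 higher and 2 lower, against 4.81% of all genes.

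The genes whose log2 levels were most alike over the 58 libraries were Mxra7 for Fads2 (r = 0.93), Slc22a17 for Fasn (0.88), Klhl9 for Elovl4 (0.86) and Arhgef10l for Srebf1 (0.82). Scd2 was most like Atp6ap1 (0.76), Acaca like Adgrv1 (0.75), Fads1 like Scn2b (0.72) and Elovl5 like A730046J19Rik (0.71). Elovl2 was most like Fgf9 (0.69) and Scd1 like Dhrs7 (0.66). Among the members themselves, the highest r was 0.71, for Elovl4 and Elovl5. Srebf1 and Fasn followed at 0.66, Scd2 and Fads1 at 0.64, Fasn and Fads2 at 0.64 and Scd1 and Scd2 at 0.61. Other pairs ran opposite, down to -0.47 for Fasn and Elovl5, and Srebf1 had an r of -0.36 with Acaca. These correlations describe libraries that share genotype, time, depth and the GC slope above.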

How the data were processed

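The authors deposited raw counts, whole numbers of reads per gene symbol for 58 retinal libraries, without normalization or filtering. Per the methods and the submitters' processing notes, reads from ribosomal RNA-depleted libraries were aligned with STAR 2.7.4a to GRCm38.p5 and counted with HTSeq 0.11.1. The strand setting is not given in the sources used here. Libraries were assigned by their titles. The members and gene lists were chosen with earlier results of these data known.

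Counts were normalized with TMM factors and tested with edgeR's quasi-likelihood test (4.0.16, R 4.3.3) on the 19120 genes with a median above 4 normalized counts, with Benjamini-Hochberg adjustment over all of them and a threshold of 0.05. The designs were a 24 h cosine per genotype, 12 groups of genotype and time, and genotype alone as in the study. DESeq2 (1.42.0) gave size factors and an alternative test. In the leave-out fits the trended dispersions of all libraries were kept. The rank test used 30 waveforms and 200000 shuffles. Cosine amplitudes and peaks were fitted by least squares on normalized counts, and SEs of fold changes were the size of the change divided by the root of its F. Permutation tests of the GC slope drew 100000 shuffles. The edgeR tests of the cosines and of genotype over all libraries, the rank test and the least squares cosine fit were tested on simulated data. The tests among times, at single times and of night against day, the DESeq2 test and the GC slope fits were not. Exon lengths, positions and GC content came from Gencode M21, where the count table was annotated with M15.

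Named were all members, up to 4 genes of the pathway list with the smallest adjusted p in each test, and for each member the expressed gene with the highest Pearson correlation of log2 CPM (prior count 2). No column was left out, and 1 gene of the pathway list, Hsd17b8, was not analysed here.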

Additional observations from a re-analysis of the deposited data

Results flagged for a closer look

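Among the 120 groups of a member, genotype and time point, 6 held a library far from the others by Dixon's test, which chance gives in about 1 of 20 groups. All 6 were diabetic groups. Elovl4 had its lowest library of 5 at ZT5 (6170 normalized counts in replicate 5, the nearest other at 7387) and its highest of 4 at ZT17 (8889 in replicate 1, the nearest other at 7132). Elovl5 had 451 in the same replicate 1 at ZT17, above the next at 414. Fads1 had 789 in replicate 2 at ZT1, below the next at 903. Fads2 had 829.7 in replicate 4 at ZT5, above the next at 661, and 833 in replicate 4 at ZT9, above the next at 639.6. The slopes of these libraries on transcript GC content, in log2 units per 10 percentage points, were 0.14 and 0.19 for the Fads2 values and -0.16 for the Fads1 value, in each case the extreme of the group on that side. They were -0.04 and 0.00 for the Elovl4 values and 0.00 for the Elovl5 value. The part of the slope in these values was not tested.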

How the results depend on the processing

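Numbers of members called, out of 10, are given here. In control retinas the cosine test called 0, and 1 without the libraries of ZT1 or of ZT5 (Scd2), and the rank test called 3, or 2 with the fold of group means. In diabetic retinas the cosine test called 4, but 1 without the libraries of ZT21 (Elovl5). It called 3 there, without Scd1, with no filter on low counts (0.0641), without ZT9 (0.366) and without ZT17 (0.0513). It called 5 without ZT5 (Scd2 gained, 0.0166) and with the slope and the block (Fads2 gained, 0.0338). Without ZT1, Scd2 replaced Elovl5 (0.00918 and 0.0813). The test among times called 0 in control retinas, but 1 with DESeq2, 2 with the GC slope as covariate and 3 with the slope and the replicate block, where 11.3%, 10.6% and 12.4% of all genes were called. In diabetic retinas it called 4, but 2 with no filter on low counts and 5, with Elovl5, under the slope (0.0120) and under the slope and the block (0.0126), with 3.8%, 17.5% and 21.4% of all genes. Genotype over all time points called 1, but 2 with DESeq2, with time point as a factor, with the slope, and with the slope and the block, and 0 without the 3 lens-rich libraries (3.5%, 4.81%, 7.23%, 6.81% and 2.24% of all genes). At single time points it called 0, but 1 (Elovl2 at ZT17) with DESeq2, with the slope, with the slope and the block, and without the lens-rich libraries. The share of all genes at ZT17 was 0.167% in the main fit and larger with the slope, as given above. For the other fits at ZT17 it is not given here. The slope, lens-rich and group-mean alternatives were chosen after the data were seen. Leaving out each library in turn gave 0 to 1 members for the control cosine, 3 to 5 for the diabetic cosine, 1 to 2 for genotype over all time points, 0 to 1 at single time points, 0 to 1 among times in control and 1 to 4 among times in diabetic retinas. The counts for night against day (1 in diabetic, 0 in control) and for both tests of differences between genotypes (0 and 0) were the same in these leave-one-out fits.

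Single libraries decided several calls. Scd1 lost its diabetic rhythm in 12 of 58 leave-outs: any 1 of the 5 libraries of ZT21, replicates 1, 2, 4 and 5 of ZT9, 1 and 5 of ZT1, or 5 of ZT13 (adjusted p up to 0.0912). Among times in diabetic retinas, Elovl2 lost its call without ZT17 replicate 5 (0.0550), Srebf1 without ZT21 replicates 1, 3 or 4 or ZT9 replicate 5 (up to 0.0772), and Scd1 without ZT9 replicates 2, 4 or 5, ZT21 replicates 3 or 4 or ZT17 replicate 5 (up to 0.0905). Elovl5 gained it without ZT5 replicate 4 (0.0448). Elovl4 gained the genotype call in 10 of 58 leave-outs (down to 0.0227), and Elovl2 at ZT17 without control replicate 5 (0.0342) or diabetic replicate 3 (0.0424). In control retinas, Scd2 gained the cosine call without ZT1 replicate 4 (0.0353) and Srebf1 without ZT17 replicate 4 (0.0486), and Scd2 gained the call among times without control ZT9 replicate 1 (0.0424), control ZT1 replicate 6 (0.0498) or diabetic ZT17 replicate 3 (0.0487). In diabetic retinas, Scd2 gained the cosine call without ZT1 replicate 2 (0.0484) and lost the call among times in 43 of 58 leave-outs. The diabetic rhythms of Srebf1, Elovl2 and Elovl5, the night rise of Srebf1 and the lower Scd2 passed in all 58 leave-outs. No called change reversed its direction. Of 9940 recomputed values, which include tests that have no sign, 123 changed sign without a call.

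The labels give no pairing by replicate number. The deviations showed some likeness by number, but the main fits hold no term for it, so a shared effect of the number is left in their spread. Over 26 pairs of the same number and time point the correlation of deviations ran from -0.22 to 0.58, with a median of 0.13, and 15 exceeded 0.1. Of 52 libraries with a partner, 26 correlated best with their own number, and the GC slope was negative in all 10 libraries of replicate 2. The rate of own-number matches that chance would give was not computed. With the replicate block alone, the counts of members called stayed at 4 for the diabetic cosine and 1 for genotype over all time points. The latter was Scd2 (log2 change -0.11, adjusted p = 0.0452, against 0.0200 without the block, edgeR).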
